A study of Mus musculus with 4 samples.

Results

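Eph receptors and ephrins were examined in the quadriceps of mice that lack the α2 exon of Mef2d. The 10 genes described are the receptor genes Epha2, Epha3, Epha4, Epha7 and Ephb4 and the ligand genes Efna1, Efna3, Efna5, Efnb1 and Efnb2, taken by symbol from the 51826 rows of the deposited table. They are part of a family of 22 genes, and the other 12 are named only where they place the 10. They were chosen by gene family after earlier results of this same WT against Mef2dα2 Eko comparison had been seen, that of Epha7 among them, so their differences between genotypes are given as a description. Counts of members past a threshold are printed only beside the share of all genes, and nothing is read from them.

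Polyadenylated RNA came from 4 sedentary male mice at about 20 weeks of age, 2 wild-type (WT) and 2 Mef2dα2 Eko, with 1 library per mouse. Mef2dα2 Eko mice are homozygous for a CRISPR-Cas9 deletion of the α2 exon, which is included in Mef2d transcripts of mature muscle. The deletion is in the germline and so is carried by every cell type of the muscle. All mice were of the C57BL6/J background, WT mice were littermates from crosses of heterozygous parents, and all were kept on standard chow. The study kept more than 1 founder line, and the line behind these libraries is not given in the sources used here.

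Total counts per library were between 72626757 and 85176059, and 3 counts, the floor used for each library, came to between 0.0348 and 0.0419 CPM (counts scaled to library size after TMM normalization). Such floors and the counting intervals given below cover counting error only. Mef2d itself had 19687 and 18393 counts in WT against 21695 and 17206 counts in Mef2dα2 Eko mice, but a count per gene does not show the deletion of 1 exon. Defining markers of muscle were abundant, with Acta1, the skeletal actin gene, between 20813 and 23463 CPM. Of 16120 genes tested by quasi-likelihood in edgeR, 67 passed a Benjamini-Hochberg adjusted p of 0.05. Whether the mice of a genotype came from separate litters is not stated, so the spread is that between these 4 mice.

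Eph receptors are receptor tyrosine kinases that bind ephrins on the surface of a neighbouring cell, so they signal at cell contacts and in both directions. Ephrins of the A class are held in the membrane by a lipid anchor and mostly bind EphA receptors, whereas ephrins of the B class cross the membrane and mostly bind EphB receptors. In limb muscle the family is known for guiding motor axons, for the sorting of arteries from veins, and for contacts of satellite cells and myofibres.

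Epha7, a receptor reported on myofibres and differentiating muscle cells, differed most between the genotypes among the 9 members with enough counts to be fitted. It had 125 counts in WT replicate 1 and 131 in WT replicate 2, whereas Mef2dα2 Eko replicates 1 and 2 had 262 and 208. The 95% exact Poisson intervals of these counts were 104 to 149 and 110 to 155 in the WT mice and 231 to 296 and 181 to 238 in the Mef2dα2 Eko mice. Both Mef2dα2 Eko mice lay above both WT mice, and the mice of a genotype were close to each other.

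Scaled to depth, Epha7 was at 1.65 and 1.62 CPM in WT against 3.04 and 2.91 CPM in Mef2dα2 Eko mice. Mean levels were 1.63 ± 0.0194 CPM (WT, SD, n = 2) and 2.97 ± 0.0924 CPM (Mef2dα2 Eko, SD, n = 2). The WT counts lay closer together than their counting intervals are wide, so the small SD of WT may understate the spread. The fitted log2 fold change, Mef2dα2 Eko minus WT, was 0.86 (standard error 0.16), which is 1.82-fold, with 1.63- to 2.04-fold at 1 standard error on either side. The genotypes differed by more than the mice within either of them. Dropping any single mouse left the log2 fold change between 0.85 and 0.90. By the size of its log2 fold change, Epha7 ranked 620 of 16120 genes tested.

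The gene of Epha7 (ENSMUSG00000028289.12) spans 28813131 to 28967499 of chromosome 4 in GRCm38, plus strand. It overlaps Gm11915 on the other strand, which had 0 counts in all 4 libraries. GENCODE release M21 has 4 protein-coding transcripts of Epha7. They share their first 1798 coding bases and then part. Epha7-201 and Epha7-203 go on to 2994 and 2982 coding bases, and Epha7-202 and Epha7-204 end at 1830 and 1878. Short forms of EphA7 that lack the kinase domain are known. The sequences below are coding strand, 5′ to 3′, and are shown because a count per gene sums over forms that differ only beyond this point. Lower case marks the last shared bases and capitals mark what follows in each transcript.
Epha7-201: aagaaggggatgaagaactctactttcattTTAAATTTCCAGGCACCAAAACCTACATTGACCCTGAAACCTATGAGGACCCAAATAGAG
Epha7-203: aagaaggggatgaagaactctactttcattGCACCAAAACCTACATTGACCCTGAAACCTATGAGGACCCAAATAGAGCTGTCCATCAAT
Epha7-202: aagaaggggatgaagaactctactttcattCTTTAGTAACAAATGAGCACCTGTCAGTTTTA
Epha7-204: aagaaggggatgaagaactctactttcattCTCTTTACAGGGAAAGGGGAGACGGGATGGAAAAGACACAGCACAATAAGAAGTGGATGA
Epha7-203 is 12 coding bases shorter than Epha7-201. Which of these forms carried the higher count in Mef2dα2 Eko mice was not tested, since the deposited counts are per gene.

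**Figure D1:**
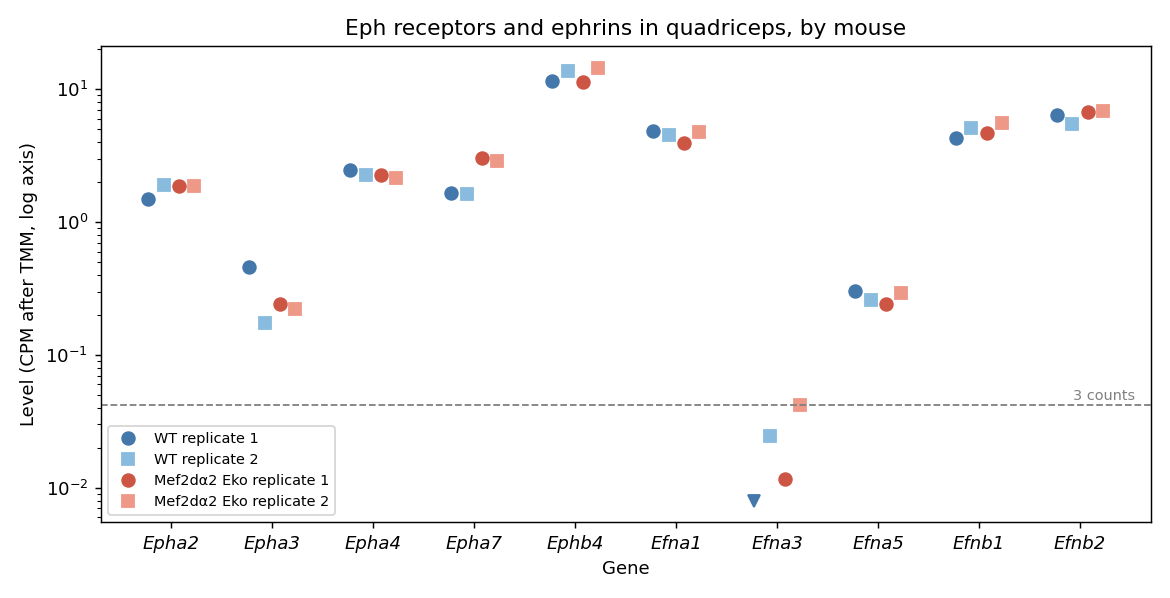
Level of each of the 10 genes in CPM after TMM normalization (log axis), with 1 point per mouse, WT in blue and Mef2dα2 Eko in red. The triangle is a library with 0 counts and the dashed line is the highest level that 3 counts give in a library, 0.0419 CPM. Epha7 sits at 1.65 and 1.62 CPM in WT against 3.04 and 2.91 CPM in Mef2dα2 Eko mice, while the genotypes overlap in all other genes shown except Efnb2.

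The other receptors did not part the genotypes. Ephb4, the receptor of venous endothelium that binds ephrin-B2, was the most abundant receptor, at 11.7 and 13.7 CPM in WT against 11.3 and 14.6 CPM in Mef2dα2 Eko mice. The fitted log2 fold change was 0.03 (standard error 0.14), and the mouse numbered 2 of each genotype was the higher. Zan, which overlaps Ephb4 on the other strand, had at most 7 counts in a library.

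Epha4, a receptor that binds ephrins of both classes and guides limb motor axons, was at 2.46 and 2.26 CPM in WT against 2.27 and 2.17 CPM in Mef2dα2 Eko mice. The fitted log2 fold change was -0.09 (standard error 0.17), and the ranges of the genotypes overlapped. Epha2, known from epithelium and endothelium, was at 1.502 and 1.92 CPM in WT against 1.87 and 1.89 CPM in Mef2dα2 Eko mice (0.13 as log2 fold change, SE 0.20). WT replicate 1 was the lowest of the 4 mice, and without it the log2 fold change of Epha2 was -0.03.

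Epha3, a receptor of mesenchymal cells, was near the lower end of what could be fitted. It had 35 and 14 counts in WT against 21 and 16 counts in Mef2dα2 Eko mice. WT replicate 1 was the highest and WT replicate 2 the lowest, so the WT mice spanned both Mef2dα2 Eko mice. The log2 fold change was -0.43 (standard error 0.56), and it was 0.43 without WT replicate 1. At this depth a difference in Epha3 was not detectable.

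Among the ligands, Efnb2 was the only member whose genotypes did not overlap, which held for 43.8% of all genes tested. Efnb2 encodes ephrin-B2, the partner of EphB4 that marks arterial endothelium. It was at 6.39 and 5.48 CPM in WT against 6.77 and 6.93 CPM in Mef2dα2 Eko mice, or 0.21 as a log2 fold change (standard error 0.12). The lower Mef2dα2 Eko mouse stood at 6.77 against 6.39 CPM in the higher WT mouse, a gap smaller than that between the WT mice. Leaving out 1 mouse at a time gave log2 fold changes of Efnb2 from 0.12 to 0.32.

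Efnb1, the X-linked gene of ephrin-B1, was at 4.32 and 5.13 CPM in WT against 4.70 and 5.58 CPM in Mef2dα2 Eko mice (0.12 as log2 fold change, SE 0.15). Efna1, an ephrin gene known from endothelium, was at 4.82 and 4.51 CPM in WT against 3.92 and 4.75 CPM in Mef2dα2 Eko mice (-0.11 as log2 fold change, SE 0.14). In both genes the mice of the genotypes overlapped.

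Efna5, whose product guides motor axons to their place in a muscle, had 23 and 21 counts in WT, with 21 counts in each Mef2dα2 Eko mouse. These counts are nearly alike, but their 95% exact Poisson intervals span 13.0 to 34.5 counts. The log2 fold change was -0.07 with a standard error of 0.42.

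Efna3 encodes ephrin-A3, which has been described on slow myofibres. It had 0 and 2 counts in WT against 1 and 3 counts in Mef2dα2 Eko mice. All 4 libraries were at or under 3 counts, so no fold was computed and Efna3 was not among the genes tested. Epha8, the gene of a receptor that binds ephrin-A3, had 0 counts in every library.

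None of the 9 members tested passed the adjusted threshold in edgeR, and 0.416% of all genes tested did, 0.105% as higher and 0.31% as lower in Mef2dα2 Eko mice. An unadjusted p below 0.05 was found for 1 of the 9 (Epha7) and for 11.6% of all genes. DESeq2, the tool the study used, called 1 of the 9 (Epha7) and 1.97% of all genes. It gave no adjusted p for Epha3 and Efna5, and genes without one are counted as not called. Both Mef2dα2 Eko mice lay on one side of both WT mice in 2 of the 9 members, both from above, and this held for 43.8% of all genes, 20.8% from above and 23% from below. The median log2 fold change of the 9 members was 0.03, and that of all genes tested was -0.0051. Of the 9, 5 had a positive and 4 a negative log2 fold change. The members were chosen with this comparison known, so these counts are no evidence about them.

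**Figure D2:**
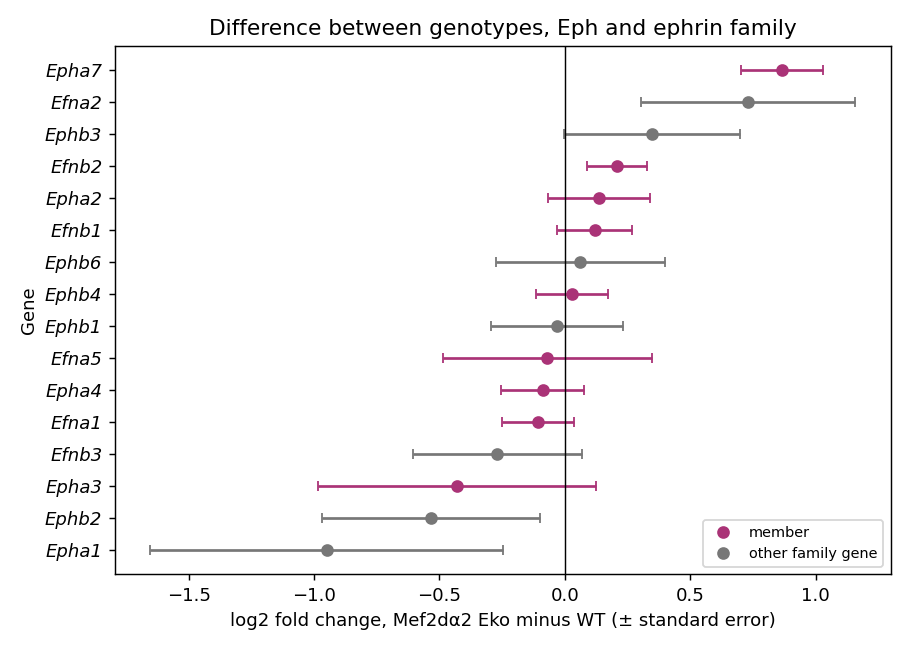
Log2 fold change, Mef2dα2 Eko minus WT, of the 16 tested genes of the family, with bars of 1 standard error on either side, members in purple and other family genes in grey. Epha7 has the highest value, 0.86, with a standard error of 0.16, and Epha1 has the lowest, -0.95, with a standard error of 0.70.

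In the family as a whole, set by gene name, 16 of the 22 genes passed the filter on low counts. None of the 16 passed the adjusted threshold in edgeR, where 0.416% of all genes did. In DESeq2 1 (Epha7) passed it, where 1.97% of all genes did. An unadjusted p below 0.05 in edgeR was found for 1 (Epha7) and for 11.6% of all genes. DESeq2 gave no adjusted p for Epha1, Epha3, Ephb2, Efna2 and Efna5. The median log2 fold change of the 16 was -0.0013, with 8 genes on each side of 0. Of the genes that are no members, Efna2, an A-class ephrin gene, had the largest positive log2 fold change, 0.73 (standard error 0.43, edgeR quasi-likelihood adjusted p = 0.564), which was 1.21 without WT replicate 1 and 0.38 without WT replicate 2. Efna2 had 27 and 16 counts in WT against 37 and 35 counts in Mef2dα2 Eko mice.

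Epha1, an EphA receptor gene best known from epithelium, had 21 and 22 counts in WT against 20 and 3 counts in Mef2dα2 Eko mice. The low count of Mef2dα2 Eko replicate 2 set its log2 fold change of -0.95 (standard error 0.70), which was -0.24 without that mouse and -2.65 without Mef2dα2 Eko replicate 1. Epha1 overlaps Zyx and 2010310C07Rik on the other strand. The B receptor genes Ephb1, Ephb2, Ephb3 and Ephb6 and the ligand gene Efnb3 had log2 fold changes of -0.03, -0.53, 0.35, 0.06 and -0.27, with edgeR adjusted p-values of 0.979, 0.687, 0.752, 0.963 and 0.806 in the same order. Epha5, Epha8 and Epha10 had 0 counts in every library, Epha6 had 1 count in Mef2dα2 Eko replicate 2 alone, and Efna4 had at most 4 counts in a library.

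Levels of different genes were compared per length, as CPM per kb of exon, averaged over the 4 mice. Ephb4 stood highest among the members, at 2.77 ± 0.342 CPM per kb (SD, n = 4). Efna1 followed at 2.46 ± 0.224 CPM per kb (SD, n = 4), and the ranges of Ephb4 and Efna1 over mice overlapped, so the order of these neighbours is not set by the data. Efnb1 was at 1.43 ± 0.157 CPM per kb (SD, n = 4) and Efnb2 at 0.933 ± 0.0951 CPM per kb (SD, n = 4), each clear of its neighbours.

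Of the EphA receptors, Epha2 was at 0.384 CPM per kb and stood above Epha4 at 0.285 in every mouse. Epha7 came next. Epha7 lay at 0.165 ± 0.00196 CPM per kb (SD, n = 2) in WT, under the range of Epha4, and at 0.301 ± 0.00935 CPM per kb (SD, n = 2) in Mef2dα2 Eko mice, where both mice were above both values of Epha4, 0.282 and 0.269 CPM per kb. So the order of Epha4 and Epha7 differed between the genotypes.

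Efna5 was at 0.0682 CPM per kb, Epha3 at 0.0317 and Efna3 at 0.00804, and the ranges of these neighbours did not overlap. The order rests on the length used. Exonic length includes long untranslated regions, and per coding length the first 4 places went to Efna1, Efnb2, Efnb1 and Ephb4, with 4 of the 10 genes in the same place as before. Averaged over the 4 mice, Epha7 and Epha4 were then also side by side, at 0.769 and 0.775 CPM per kb of coding sequence. In WT alone, Epha4 was at 0.799, Epha2 at 0.583 and Epha7 at 0.545 on that scale, so Epha2 lay between them. In Mef2dα2 Eko mice Epha7 was above Epha4, at 2.97 against 2.22 CPM with coding lengths of 2994 and 2958 bases.

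The receptor genes of the family summed to between 3.84 and 4.62 CPM per kb in a mouse and the ephrin genes to between 4.96 and 5.74 CPM per kb, and both sums overlapped between genotypes. Ligand to receptor RNA stood at a ratio of 1.39 and 1.17 in WT against 1.25 and 1.24 in Mef2dα2 Eko mice. Ephb4 made up between 61.6% and 68.1% of the receptor sum, with the lowest and the highest share both in Mef2dα2 Eko mice. Epha7 made up 4.34% and 3.74% of the receptor sum in WT against 7.75% and 6.37% in Mef2dα2 Eko mice.

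Within the EphA receptors alone, the share of Epha7 was 18.2% and 17.4% in WT against 28.6% and 29.2% in Mef2dα2 Eko mice. The summed EphA level was 0.917 and 0.944 CPM per kb in WT against 1.08 and 1.01 CPM per kb in Mef2dα2 Eko mice, so the genotypes did not overlap in this sum either. The sum of the EphB receptors ranged from 2.89 to 3.61 CPM per kb, with the highest and the lowest mouse both Mef2dα2 Eko. Epha7 enters the EphA sum, and so this is no separate result.

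**Figure D3:**
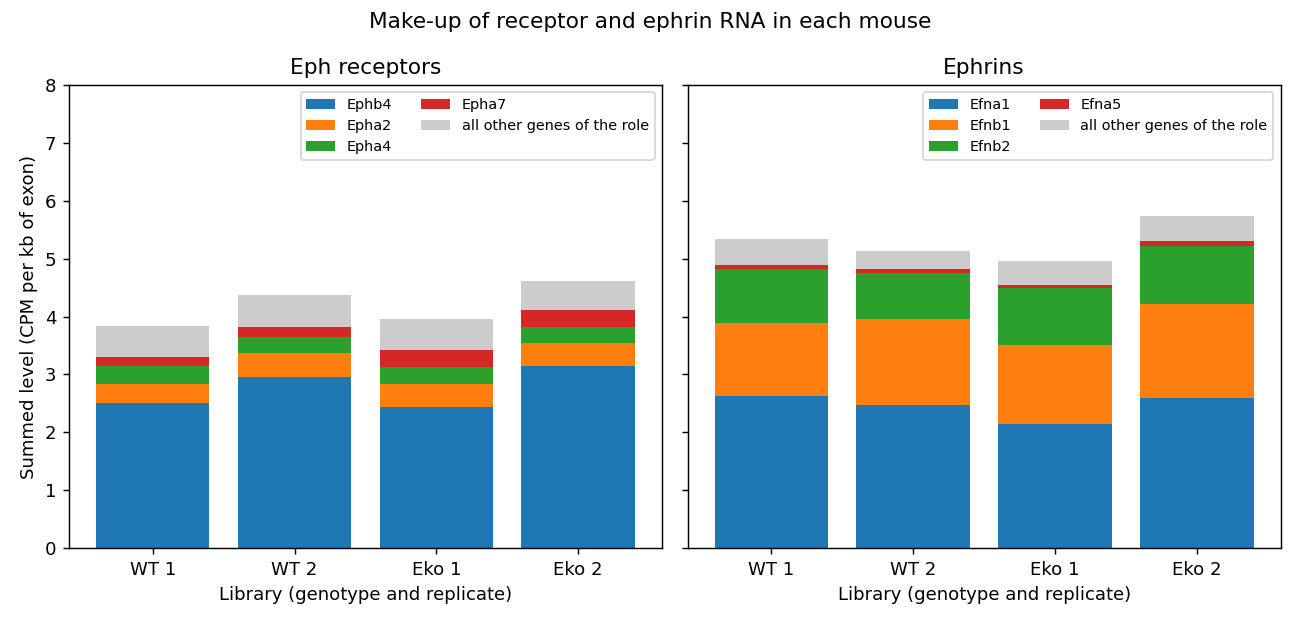
Summed level of the Eph receptor genes (left) and the ephrin genes (right) in CPM per kb of exon in each of the 4 libraries, as stacked bars. Ephb4 fills between 61.6% and 68.1% of the receptor bars, and the share of Epha7 goes from 4.34% and 3.74% in WT to 7.75% and 6.37% in Mef2dα2 Eko mice.

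Neighbouring genes of A-class ephrins had unlike levels. Efna1, Efna3 and Efna4 lie within 66.3 kb on chromosome 3 of GRCm38, all on the minus strand, with Efna1 from 89271733 to 89281142, Efna3 from 89313899 to 89322965 and Efna4 from 89333390 to 89338028. Efna1 had between 338 and 366 counts in a library, whereas Efna3, 32.8 kb away, had at most 3 and Efna4 at most 4. Gm15998, on the strand opposite Efna3, also had at most 3 counts.

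Start-site regions of the members were read from RefSeq on GRCm38.p6, where all 10 members matched, with 13 start sites in all. Because MEF2D is a transcription factor that binds DNA, the 250 bases before each start were searched on both strands for the MEF2 consensus motif. It was in none of the 13 windows, and in 2.92% of all 32851 windows of the same length. The E-box letters CANNTG were in 3 of the 13 windows, those of Ephb4, Efnb2 and 1 of the starts of Efna3, and in 66.2% of all windows. The TATA box letters TATAAA, which can overlap the MEF2 consensus, were also searched on either strand. They were in 1 of the 13, that of Efnb2, where they lie on the opposite strand and read TTTATA, and in 12.4% of all windows. The GC box letters GGGCGG, on either strand, were in 11 of the 13 and in 32.7% of all windows. GC content of the member windows was between 55.6% and 74.8%, and the median of all windows was 52.4%. A match or its absence in such a window is a description of these letters.

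Epha7 and Efnb2 are the members whose genotypes did not overlap, which held for 43.8% of all genes tested, so nothing is read from that choice. Their windows are printed 5′ to 3′ in the direction of the gene, with GC boxes in capitals. That of the upstream start of Epha7 is chr4:28812881-28813130 on the plus strand and that of Efnb2 is chr8:8661243-8661492 on the minus strand.
Epha7: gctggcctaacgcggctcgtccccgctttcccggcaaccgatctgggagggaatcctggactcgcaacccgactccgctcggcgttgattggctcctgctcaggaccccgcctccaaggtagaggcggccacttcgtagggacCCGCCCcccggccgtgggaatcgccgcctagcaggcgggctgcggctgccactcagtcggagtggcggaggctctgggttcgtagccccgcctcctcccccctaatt
Efnb2: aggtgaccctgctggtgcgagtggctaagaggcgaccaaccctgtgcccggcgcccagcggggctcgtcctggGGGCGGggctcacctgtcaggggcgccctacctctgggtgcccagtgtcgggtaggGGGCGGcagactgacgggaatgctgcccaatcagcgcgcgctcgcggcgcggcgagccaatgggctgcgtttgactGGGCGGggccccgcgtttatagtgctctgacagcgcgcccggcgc
The window of Epha7 holds 1 GC box and 25 CG pairs and that of Efnb2 holds 3 GC boxes and 27 CG pairs. GC content is 69.2% and 72.0%.

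Genes that carry the signal onward were taken as a list of 49 partners of Eph receptors and ephrins. Of these, 48 were tested, 0 passed the adjusted threshold in edgeR, where 0.416% of all genes did, and 4 had an unadjusted p below 0.05, where 11.6% of all genes did. Their median log2 fold change was 0.0083, with 26 positive and 22 negative. With DESeq2, 1 of the 48 passed, Pdzrn3, and 1.97% of all genes did. Pdzrn3, a ubiquitin ligase with PDZ domains that acts on MuSK at the neuromuscular junction, was at 147 and 132 CPM in WT against 187 and 180 CPM in Mef2dα2 Eko mice. The fitted log2 fold change was 0.40 (standard error 0.08, edgeR quasi-likelihood adjusted p = 0.124). Pdzrn3 passed the threshold in edgeR in the fit blocked on replicate (quasi-likelihood adjusted p = 0.0479) and in the fit with no filter on low counts.

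Sdcbp, the gene of syntenin, a PDZ protein that binds B ephrins, was at 25.5 and 24.2 CPM in WT against 22.3 and 21.8 CPM in Mef2dα2 Eko mice (log2 fold change -0.17, edgeR quasi-likelihood adjusted p = 0.432). The 4 tested PDZ partners had a median log2 fold change of 0.06.

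The 13 kinases and adaptors summed to between 550 and 561 CPM in a mouse, with a median log2 fold change of 0.0053. The most abundant were Ptpn11, the gene of the phosphatase SHP2, between 152 and 155 CPM, and Inppl1, the gene of the phosphatase SHIP2, between 111 and 122 CPM.

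Among the 15 exchange factors and GAPs, the median log2 fold change was 0.01 and the extremes were -1.10 and 0.72. Itsn1, an exchange factor for Cdc42 that works with EphB receptors, was the most abundant at 85.3 and 86.6 CPM in WT against 91.7 and 94.99 CPM in Mef2dα2 Eko mice (edgeR quasi-likelihood adjusted p = 0.536). Itsn2 was at 21.3 and 19.7 CPM in WT against 23.0 and 25.3 CPM in Mef2dα2 Eko mice (edgeR quasi-likelihood adjusted p = 0.354). Of the 6 proteases and phosphatases that act on Ephs or ephrins, the median log2 fold change was -0.11. Ptprb, a receptor phosphatase of endothelium, was the most abundant, between 56.0 and 78.1 CPM, and Mmp2, a matrix protease, followed between 20.0 and 22.7 CPM. None of the genes named here passed the threshold in edgeR or DESeq2.

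In bulk muscle RNA, fewer cells of a type and less RNA per cell cannot be told apart, so markers of the cells that could carry these genes were read in the same libraries. Of 77 markers in 14 lists, 0 passed the adjusted threshold in edgeR, where 0.416% of all genes did, and 16 had an unadjusted p below 0.05, where 11.6% of all genes did. Their median log2 fold change was 0.0081. With DESeq2, 3 passed, Mb, Col3a1 and Myh1, all lower in Mef2dα2 Eko mice, and 1.97% of all genes did.

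Markers of endothelium, where Ephb4, Efnb2 and Efna1 are known to be expressed, summed to 160 and 146 CPM in WT against 138 and 159 CPM in Mef2dα2 Eko mice, with a median log2 fold change of -0.02 over 7 genes. This endothelial median was 0.08 without Mef2dα2 Eko replicate 1 and -0.14 without Mef2dα2 Eko replicate 2. Cdh5 and Pecam1, the most abundant of the 7, had log2 fold changes of -0.04 and -0.02. Relative to the summed endothelial markers, Efna1 stood at 3.02% and 3.10% in WT against 2.83% and 2.995% in Mef2dα2 Eko mice. Efnb2 stood at 4.003% and 3.76% in WT against 4.89% and 4.37% in Mef2dα2 Eko mice, and Ephb4 at 7.31% and 9.42% against 8.19% and 9.20%. On this scale both Mef2dα2 Eko mice were above both WT mice in Efnb2 and below both in Efna1, while Ephb4 overlapped. In Efna1 the gap was only 2.995% against 3.02%, and its CPM overlapped between genotypes. By CPM, both Mef2dα2 Eko mice were above both WT mice in 20.8% of all genes tested and below both in 23%.

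The arterial markers had a median log2 fold change of 0.02 over 5 genes and the venous markers one of -0.13 over 4 genes. Nr2f2, a transcription factor of veins, was at 19.1 and 18.9 CPM in WT against 23.1 and 23.0 CPM in Mef2dα2 Eko mice (log2 fold change 0.28, edgeR quasi-likelihood adjusted p = 0.228). Of the other venous markers, Vwf was at 0.10, Ackr1 at -0.36 and Selp at -0.47 on the log2 scale. The venous median was 0.10 without WT replicate 1. Relative to the arterial markers, Efnb2 was at 39.3% and 27.4% in WT against 39.2% and 36.8% in Mef2dα2 Eko mice, where the genotypes overlapped. The part of these markers in the values of Efnb2 was not tested.

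The 6 Schwann cell markers, of the glia that wrap motor axons, had a median log2 fold change of 0.39, all 6 positive, and summed to 23.9 and 27.0 CPM in WT against 29.7 and 36.2 CPM in Mef2dα2 Eko mice. Mbp, a myelin gene, was at 8.29 and 9.35 CPM in WT against 10.7 and 12.2 CPM in Mef2dα2 Eko mice (log2 fold change 0.37, edgeR adjusted p = 0.294). Without WT replicate 1 or without Mef2dα2 Eko replicate 2, the median of the Schwann cell list was 0.20 or 0.21. The 5 satellite cell markers had a median of 0.18, all 5 positive, from 0.05 to 0.66. They summed to 24.5 and 22.8 CPM in WT against 25.3 and 26.1 CPM in Mef2dα2 Eko mice. With 1 mouse left out at a time, the satellite cell median ran from 0.14 (without Mef2dα2 Eko replicate 2) to 0.30 (without WT replicate 1). Cdh15, the most abundant, had a log2 fold change of 0.05, and Chodl one of 0.18.

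As a share of the Schwann cell sum, Epha7 was at 6.89% and 6.01% in WT against 10.2% and 8.04% in Mef2dα2 Eko mice. As a share of the satellite cell sum, it was at 6.72% and 7.09% in WT against 12.0% and 11.1% in Mef2dα2 Eko mice. The genotypes did not overlap on either scale. The 6 genes of the neuromuscular junction had a median log2 fold change of -0.01, with Musk at -0.26 and Etv5 at -0.06. That median was 0.22 without Mef2dα2 Eko replicate 1 and -0.22 without Mef2dα2 Eko replicate 2.

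The 6 slow-fibre genes summed to 323 and 769 CPM in WT against 511 and 333 CPM in Mef2dα2 Eko mice, so WT replicate 2 was apart, with Myh7, the slow myosin, at 339 CPM there against 113 CPM in WT replicate 1. Atp2a2, the calcium pump of slow fibres, was at 291 CPM there against 152 CPM. Epha7 was at 1.62 and 1.65 CPM in those mice. The median of the slow-fibre list was -0.21, and 0.73 without WT replicate 2. It was -0.78 without WT replicate 1, -0.63 without Mef2dα2 Eko replicate 1 and 0.12 without Mef2dα2 Eko replicate 2. The 6 fast-fibre genes had a median log2 fold change of 0.11, which was 0.03 without WT replicate 1 and 0.20 without WT replicate 2. Myh4 and Atp2a1, the most abundant, were at 0.07 and 0.11, and Myh1, a fast myosin, was at -0.44. The 5 general myofibre markers had a median of 0.0027, with Acta1 at -0.14, Ttn at 0.22 and Mb, the myoglobin gene, at -0.50.

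Adipocyte markers had a median log2 fold change of -1.08 over 5 genes, with Fabp4 at -0.27 and Adipoq at -1.08. That median was -0.14 without WT replicate 1, -1.85 without Mef2dα2 Eko replicate 1 and -0.60 without Mef2dα2 Eko replicate 2. Macrophage markers had a median of -0.62 over 5 genes, with C1qa at -0.62 and Mrc1 at -0.18, and it was -0.41 without WT replicate 1 and -0.39 without Mef2dα2 Eko replicate 2. Fibroblast markers had a median of -0.21, with Dcn at 0.14 and Col3a1 at -0.40, and pericyte and smooth muscle markers one of 0.17, with Rgs5 at 0.19 and Myh11 at 0.22. Erythroid markers had one of 0.0081, with Hba-a2 at 0.0081 and Hbb-bs at 0.08. Sox17 and Dll4, of the arterial list, were at -0.17 and 0.14. None of the genes named here passed the threshold in edgeR, Col3a1 passed it in DESeq2, Adipoq passed it in edgeR in the fit blocked on replicate, and Col3a1, Adipoq and C1qa passed it in edgeR with no filter on low counts. Their part in the values of Epha7 and the other members was not tested.

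**Figure D4:**
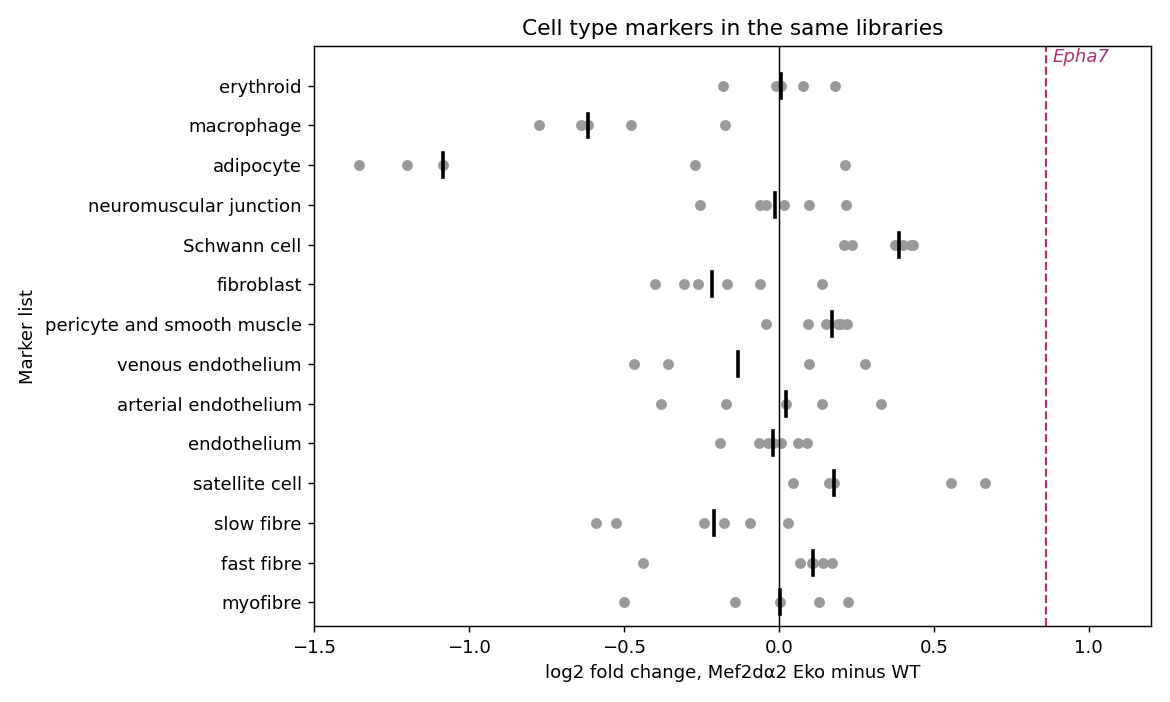
Log2 fold change, Mef2dα2 Eko minus WT, of the markers of each of 14 lists, with 1 grey point per gene and a black bar at the median of the list. The dashed line is Epha7 at 0.86, which lies to the right of all 77 markers, the highest of which is at 0.66.

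Base composition moved with the comparison across genes. Log2 fold changes had a rank correlation of -0.21 with transcript GC content over 15636 tested genes, which are not independent replicates. Epha7 is AT-rich, with 41.7% GC in its longest transcript, and the median log2 fold change of the 1109 tested genes within 1 percentage point of it was 0.05, against 0.86 for Epha7. Ephb4 has 58.4% GC, and its log2 fold change of 0.03 compares with a median of -0.09 over the 903 genes near it. For Efnb2, at 50.4% GC, the median of the genes near it was -0.02.

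The genes whose pattern over the 4 libraries was most like that of Epha7 were Sh3rf2, Pllp and Gpr155. Likeness was the root mean square difference of log2 CPM, each gene centred on its own mean over the libraries, and it was 0.0192, 0.0384 and 0.0444 in that order. Sh3rf2 was at 25.3 and 25.4 CPM in WT against 44.6 and 43.9 CPM in Mef2dα2 Eko mice, or 0.80 as a log2 fold change. Pllp was far lower, between 0.223 and 0.545 CPM, with a log2 fold change of 1.15, and Gpr155 was between 22.1 and 38.0 CPM, with one of 0.75. A closeness over 4 libraries, found by searching 16120 genes, is a description of these mice.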

How the data were processed

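The authors checked reads with FastQC, aligned them to mm10 (GRCm38), with STAR 2.6.1a named in the submitters' processing notes, and estimated counts per gene with RSEM and an Ensembl annotation of GRCm38. The deposited expected counts carry no normalization, and all were whole numbers, so rounding changed none. The library kit keeps strand, but the strand setting for counting is not given in the sources used here. RSEM divides reads that match several genes by a probability model.

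Groups came from the sample labels. In R 4.3.3, edgeR 4.0.16 fitted genotype alone by quasi-likelihood on TMM-scaled libraries, after its default filter on low counts had left 16120 genes. Adjustment was by Benjamini-Hochberg over those genes, at 0.05, and a prior count of 0.125 entered the log2 fold changes. Each standard error is the log2 fold change divided by the root of its F value. With 2 mice in each group, the smallest p that permuting mice exactly could give is 0.333. The test was tested on simulated data with known changes. Positions and lengths came from GENCODE release M21, which differs from the authors' annotation.

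The text names the members, the rest of the family, any gene of the partner and marker lists past the threshold and otherwise the 2 most abundant of each list, and the 3 genes most like Epha7. Some results this rule would name are not reported here. Mef2d and genes on the opposite strand are outside this rule and are given for context, as are genes called only in an alternative, which were chosen after their values were seen. Members and lists were chosen with earlier results of these data known. Alternatives were DESeq2 1.42.0, limma-voom (limma 3.58.1), RLE and upper-quartile normalization, no filter, at least 1 CPM in 2 libraries, a replicate block, and leaving out each mouse.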

Additional observations from a re-analysis of the deposited data

How the results depend on the processing

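Over the alternatives, Epha7 kept its direction in all 11, with log2 fold changes from 0.85 to 0.90, and was past the threshold in 2 of them. With DESeq2, 318 of all genes were called, with 1 family gene (Epha7), 1 gene of the partner list (Pdzrn3) and 3 markers. Without the filter on low counts these were 799, 1 (Epha7), 1 (Pdzrn3) and 11, of 24621 genes tested, and with at least 1 CPM in 2 libraries 23 of 12241 genes tested were called. The cause was not tested. With each mouse left out in turn, calls over all genes ran from 99 (without WT replicate 1) to 299 (without WT replicate 2), with 204 without Mef2dα2 Eko replicate 1 and 126 without Mef2dα2 Eko replicate 2, those in the partner list from 0 to 1 (Tiam1 without WT replicate 2), those among the markers from 0 (without Mef2dα2 Eko replicate 2) to 9 (without Mef2dα2 Eko replicate 1, adipocyte and macrophage markers among them), and those in the family stayed at 0. The fit without 1 mouse leaves a lone sample, assumed to vary like the others.

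The replicate numbers of the labels number different mice, and the deviations of same-numbered mice had a correlation of 0.124 over genes. With 2 numbers this does not settle whether they pair the mice. With the replicate block, 186 of all genes were called, with 0 in the family, 1 in the partner list (Pdzrn3) and 4 markers.

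The direction turned without 1 mouse in 10 family genes. Without each mouse in turn, log2 fold changes ran from -0.029 to 0.34 in Epha2, -0.96 to 0.43 in Epha3, -0.26 to 0.26 in Ephb1, -0.92 to 0.014 in Ephb2, -0.16 to 0.21 in Ephb4, -0.15 to 0.25 in Ephb6, -0.25 to 0.041 in Efna1, -0.21 to 0.076 in Efna5, -0.0095 to 0.26 in Efnb1 and -0.55 to 0.093 in Efnb3. Of the marker list medians, 145 values stayed within the spread between mice and 9 moved. Among these the venous median of -0.13 was 0.10 without WT replicate 1 and 0.092 with at least 1 CPM in 2 libraries. Per coding length, 4 of the 10 members kept their place in the order of levels. Among the members, depth limits Efna3, Efna5 and Epha3 most, at no more than 3, 23 and 35 counts in a library.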
